A study of Mus musculus with 8 samples.

Results

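Activated hepatic stellate cells were set against quiescent ones, over 4 of the 8 RNA sequencing libraries of the series and all 14162 genes of its expression table. Activated cells (2 libraries, replicates 1 and 2) and quiescent cells (2 libraries) were chosen by their labelled cell status alone, and neither group carries a microRNA. The other 4 libraries, activated cells given miR-15a or a control microRNA, entered the fit only to estimate the spread between replicates. Mice of the strains C57BL/6J and SCID are named for the study, but no label ties a library to a strain, to an age or to a number of animals. The labels also do not say how quiescent cells were isolated, how cells were activated, or whether the 2 libraries of a group came from separate mice or cultures, so p-values here measure only how far these particular libraries differ, and that difference may be technical.

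Hepatic stellate cells lie between the sinusoidal endothelium and the hepatocytes and store vitamin A as retinyl esters in lipid droplets. On injury, or when cultured on plastic, they lose these droplets, divide and become contractile myofibroblasts that secrete collagen, the main source of scar matrix in liver fibrosis. Transforming growth factor beta and platelet-derived growth factor are the best known signals of this change.

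In activated cells the collagens, the enzymes that cross-link them, the smooth muscle contractile proteins and the genes of mitosis were higher, with list medians between 2.75 and 4.83 on the log2 scale. Markers of endothelial cells and of macrophages, interferon-stimulated genes, antigen presentation and chemokines were mostly lower. Of 13150 genes tested, 10451 (79.5%) differed: 5968 (45.4%) were higher and 4483 (34.1%) lower in activated cells, so a list with about those shares called does not stand apart. With an absolute log2 fold change over 1 added, 3160 genes (24%) were higher and 2859 (21.7%) lower. The test was limma on log2(value + 5), with Benjamini-Hochberg adjusted p under 0.05, and each log2 fold change below is the activated minus the quiescent mean on that scale, given with its standard error (n = 2 libraries a group).

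**Figure D1:**
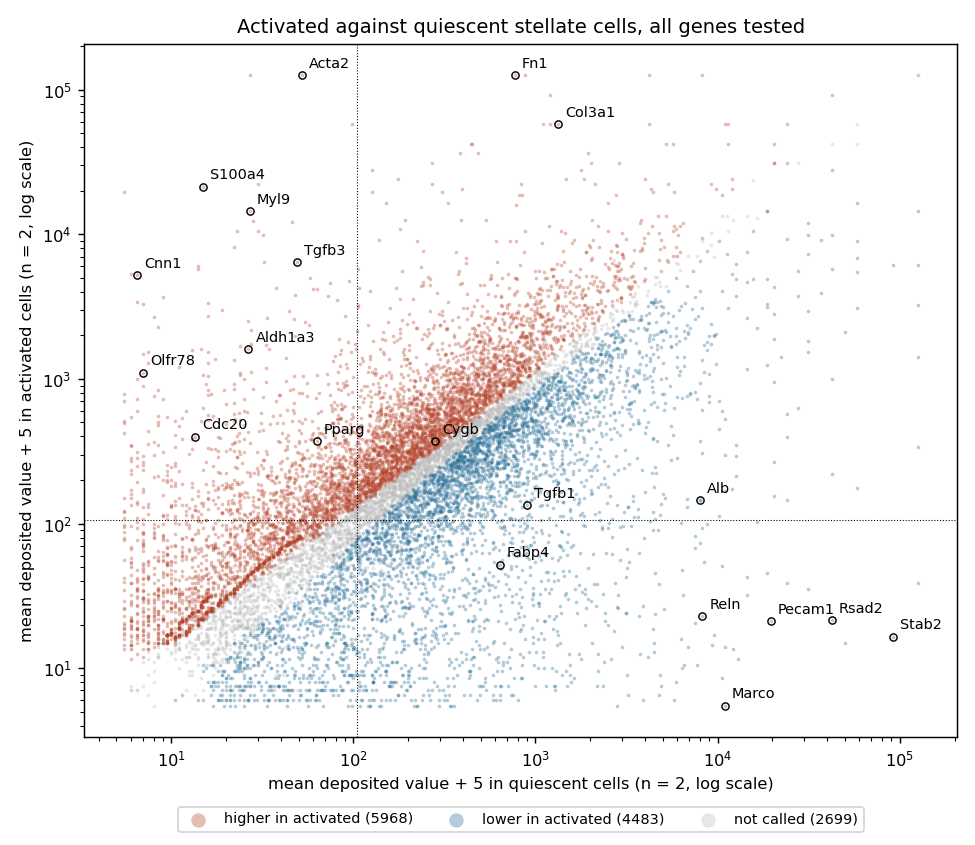
Mean normalized value + 5 of each tested gene in activated cells (vertical axis) against quiescent cells (horizontal axis), both on log scales, coloured by call; dotted lines mark a value of 100. Acta2, Myl9 and S100a4 lie at the upper left, Pecam1, Rsad2 and Marco at the lower right, and Cygb close to the diagonal.

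The values are normalized scores rather than read counts. Every library holds the same 910 distinct numbers up to a shared ceiling of 125636, so the sequencing depth behind them is unknown and genes at the ceiling are known only as a lower limit. Above 10000 only 21 distinct numbers occur, so equal values of both replicates there do not show a small spread. Replicates were close, with a Pearson r across genes of 0.988 for activated and 0.991 for quiescent cells, against 0.700 to 0.715 between the groups. Low values could not be told apart from no reads. Olfactory, vomeronasal and taste receptor genes, mostly silent outside sense organs, were listed at medians of 8 and 8 in activated and 4 and 3 in quiescent libraries over the 396 of 400 that stayed under 100 in all 4 libraries. Of 144 such genes that stayed under 100 and passed the minimum of 10, limma called 133 (92.4%) higher in activated cells, none past a log2 fold change of 1. Neighbours in the table shared their low values: 72.3% of 346 adjacent pairs were within 1 of each other in all 4 libraries. The highest values of the 396 were 93 and 65 in activated and 85 and 63 in quiescent libraries. The limit of 100 also picked these genes, so they do not establish it, and 4 of the 400 reached it. As a cautious choice, a value under 100 is treated here as no evidence of expression. A fold against such a value depends on it. With a minimum of 100 in at least 2 libraries, chosen after seeing these values, 4519 of 9830 genes (46%) were higher and 3705 (37.7%) lower.

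The calls also depend on scaling. Median-ratio scaling moved the median log2 fold change of all tested genes by -0.27, from 0.21 in the deposited values, and left 4775 genes (36.3%) higher and 5414 (41.2%) lower. The share of calls that were higher was then 46.9%, against 57.1% with the deposited values. Lists are therefore read against the median of all genes.

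The labelled cell types were checked against marker lists. The quiescent libraries held stellate markers: Reln, a secreted glycoprotein of quiescent stellate cells, was at 14 and 22 in activated and 7724 and 8724 in quiescent libraries. Colec11, a collectin, was at 1 and 3 in activated and 1208 and 1332 in quiescent libraries. Both were in the range of silent genes in activated cells. The defining genes Lrat, Gfap, Tcf21 and Lhx2 were on the marker list of 29 genes but not among the 22 with values. They could therefore not be checked in either group. The quiescent libraries also held RNA of other liver cells. Summed over 39 endothelial markers, the values were 2092 and 1776 in activated and 351742 and 280874 in quiescent libraries. Summed over 36 Kupffer cell and macrophage markers they were 7284 and 7043 in activated and 223557 and 251057 in quiescent libraries. The 32 hepatocyte markers summed to 705 and 901 in activated and to 20886 and 17625 in quiescent libraries.

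Per kilobase of exon, the median marker of the endothelial list stood at 3.07 and 0.533 in activated and 770 and 770 in quiescent libraries, that of the macrophage list at 18.1 and 14.5 in activated and 703 and 807 in quiescent libraries, and that of the 22 quiescent stellate markers at 26.4 and 24.8 in activated and 172 and 166 in quiescent libraries. On this scale the typical endothelial or macrophage marker was above the typical stellate marker in the quiescent libraries. The 5 lymphocyte markers summed to 15 and 14 in activated and 283 and 232 in quiescent libraries. In bulk libraries, fewer cells of a type and less RNA per cell cannot be told apart, and how far RNA of other cells enters each lower gene was not tested.

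**Figure D2:**
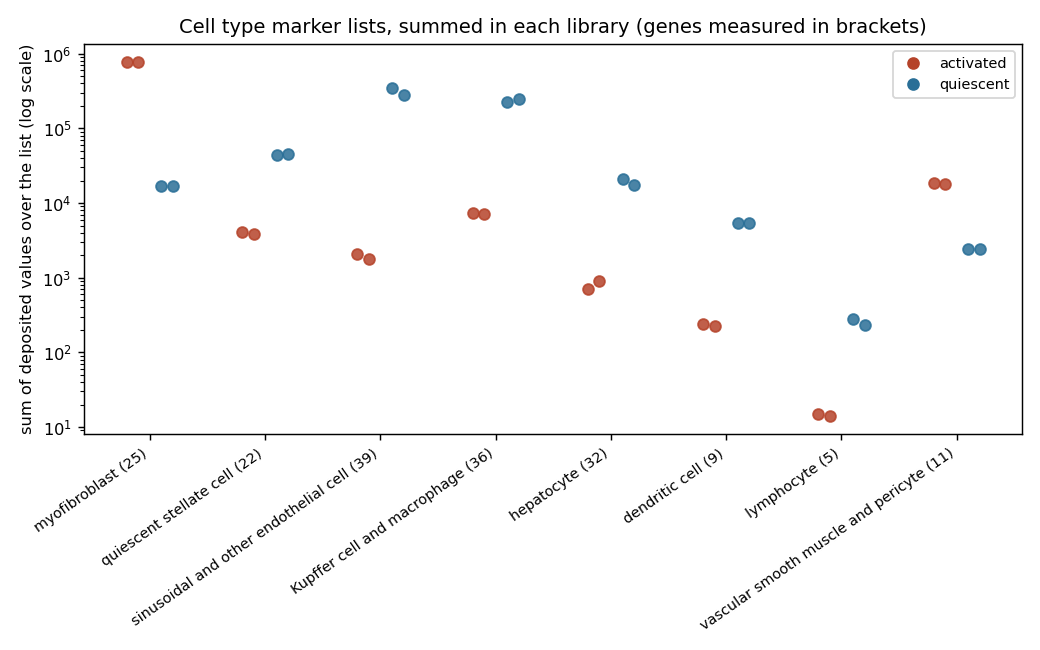
Sum of the normalized values over each cell type marker list, on a log scale, with 1 point per library and activated cells left of quiescent cells. Endothelial, macrophage and hepatocyte sums are lower, and myofibroblast sums higher, in both activated libraries.

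The groups also differed in sex-linked genes. Xist, transcribed from the inactive X chromosome, was at 169 and 21 in activated and 8724 and 8724 in quiescent libraries. The Y-linked helicase gene Ddx3y was at 2606 and 2570 in activated and at 44 and 40, within the range of silent genes, in quiescent libraries. Kdm5d, Uty and Eif2s3y, also Y-linked, were called higher as well. Activation and the sex of the source animals cannot be told apart in this comparison.

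Of 8 fibrillar collagen genes, which form the ropes of scar tissue, 6 were higher and 2 lower, with a median log2 fold change of 4.83 against 0.207 over all genes tested. Col3a1, the type III chain, was at 58193 and 58193 in activated and 1182 and 1472 in quiescent libraries, a log2 fold change of 5.46 ± 0.15. Col5a2, whose type V fibrils set fibril width, was at 42360 and 42360 in activated and 420 and 450 in quiescent libraries (6.59 ± 0.13). Col1a2 stood at the ceiling in both activated libraries and at 856 and 876 in quiescent ones, so its 7.17 ± 0.06 is a lower limit. The 2 that fell are collagens of cartilage: Col11a2 was at 51 and 42 in activated and 176 and 166 in quiescent libraries, and Col27a1 had a log2 fold change of -0.93 ± 0.15.

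Other interstitial collagens moved the same way, with 8 of 9 higher, none lower, and a median of 4.23. Col12a1, which links fibrils to their surroundings, was at 20500 and 24099 in activated and 20 and 30 in quiescent libraries. Col8a1, a short-chain collagen of vessel walls and sclera, was at 9821 and 11352 in activated and 20 and 16 in quiescent libraries. Neither was above the level of silent genes in the quiescent libraries. The chains of the beaded-filament collagen VI rose together, at 4.23 ± 0.12 for Col6a1, 4.26 ± 0.12 for Col6a2 and 6.37 ± 0.12 for Col6a3. Col20a1 was at 23 and 26 in activated and 20 and 24 in quiescent libraries and was not called.

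The basement membrane, the thin sheet under endothelium and epithelium, split. Of 20 genes tested, 12 were higher and 6 lower, with a median of 1.31. Col4a1, a main chain of network collagen IV, did not pass the test at 31230 and 31230 in activated and 24105 and 31230 in quiescent libraries (0.19 ± 0.16, adjusted p 0.31). Col4a5, a minor chain, was at 3448 and 3374 in activated and 2 and 1 in quiescent libraries. Col15a1, at 1294 and 1294 in activated and 3 and 2 in quiescent libraries, was higher as well. Lama4, a laminin of vessel walls, was at 302 and 248 in activated and 1730 and 1772 in quiescent libraries, and Lama3 and Agrn were lower too. Endothelial markers fell together with these laminins, and their part was not tested.

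Genes that fold, modify and cross-link collagen were higher in 21 of 25 and lower in 3, with a median of 2.96. Lox, the lysyl oxidase that starts cross-linking, was at the ceiling in both activated libraries and at 22 and 22 in quiescent ones. Loxl1, its relative in elastic fibres, was at 6464 and 6464 in activated and 24 and 31 in quiescent libraries (7.65 ± 0.12). Plod2, which hydroxylates telopeptide lysines for pyridinoline cross-links, was at 10504 and 11352 in activated and 175 and 176 in quiescent libraries (5.92 ± 0.07). Its paralog Plod1 went the other way, at 816 and 866 in activated and 1677 and 1647 in quiescent libraries (-0.98 ± 0.06). Tgm2, a transglutaminase that cross-links matrix through glutamine, was at 5764 and 5764 in activated and 42350 and 42350 in quiescent libraries (-2.88 ± 0.05). The collagen chaperone partner Fkbp10 (5.96 ± 0.11) and Bmp1, the protease that cuts procollagen (5.06 ± 0.14), rose.

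Elastic fibre genes were higher in 8 of 12 and lower in 4, with a median of 4.58. Fbn1, the microfibril scaffold fibrillin-1, was at 31224 and 42350 in activated and 364 and 397 in quiescent libraries. Fbln2 was at 58193 and 58193 in activated and 108 and 78 in quiescent libraries. Among the latent TGF-beta binding proteins, which hold the growth factor in the matrix, Ltbp2 was at 9824 and 9824 in activated and 44 and 10 in quiescent libraries, while Ltbp4 was at 96 and 80 in activated and 8204 and 8204 in quiescent libraries. These 2 members of the family moved in opposite directions.

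Matricellular proteins, which modulate adhesion without bearing load, were higher in 14 of 17 and lower in 3. Postn, periostin, was at 42350 and 31224 in activated and 448 and 512 in quiescent libraries (6.23 ± 0.15). Fn1, fibronectin, and Thbs1, thrombospondin-1, were at the ceiling in both activated libraries. Tgfbi, an adhesion protein named for its induction by TGF-beta in human cells, was at 28 and 28 in activated and 1515 and 1430 in quiescent libraries (-5.48 ± 0.13). Tnxb, tenascin-X, was at 5 and 2 in activated and 515 and 531 in quiescent libraries.

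Proteoglycans were mixed, with 10 of 20 higher and 8 lower. Cspg4, the NG2 proteoglycan of pericytes, was at 5766 and 5766 in activated and 8 and 10 in quiescent libraries (8.69 ± 0.07). Srgn, the core protein of leukocyte and endothelial granules, was at 14 and 24 in activated and 3203 and 3047 in quiescent libraries. Proteases and their inhibitors were higher in 18 of 30 and lower in 12. Timp2 (4.28 ± 0.07), an inhibitor of matrix metalloproteinases, and Adamts2 (4.23 ± 0.07), the procollagen N-propeptidase, rose. The aggrecanase Adamts4 was at 52 and 76 in activated and 1346 and 1420 in quiescent libraries, and Adamts9 at 12 and 16 in activated and 966 and 946 in quiescent libraries.

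**Figure D3:**
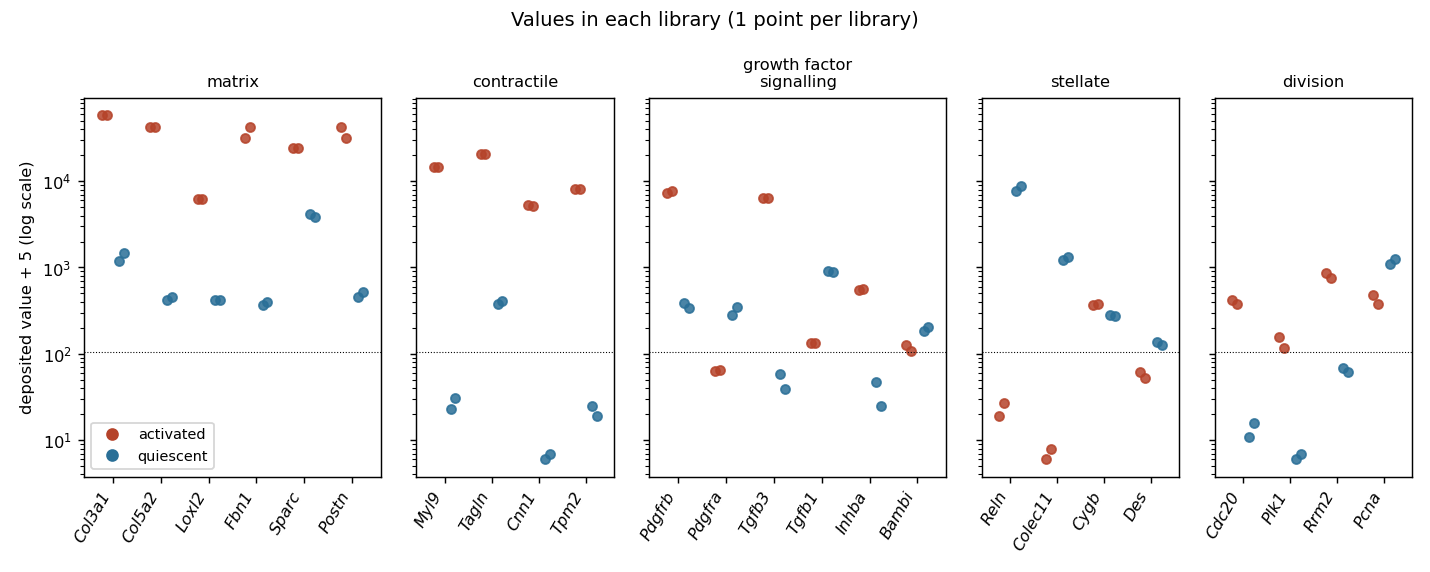
Normalized value + 5 on a log scale for 24 genes in 5 panels, 1 point per library, with activated cells left of quiescent cells; the dotted line marks a value of 100. Matrix and contractile genes are higher in both activated libraries, whereas Tgfb3 and Tgfb1, and Pdgfrb and Pdgfra, move in opposite directions.

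The contractile apparatus of smooth muscle was nearly all higher, at 22 of 24 with 1 lower and a median of 2.75. Myl9, the regulatory light chain of smooth muscle myosin, was at 14426 and 14426 in activated and 18 and 26 in quiescent libraries (9.08 ± 0.12). Tpm2, a tropomyosin, was at 8204 and 8204 in activated and 20 and 14 in quiescent libraries (8.56 ± 0.12). Myh11, the heavy chain held to mark differentiated smooth muscle, was at 1030 and 1076 in activated and 20 and 18 in quiescent libraries. Tagln, the actin-binding protein SM22, was at 20504 and 20504 in activated and 375 and 404 in quiescent libraries. Smtn, smoothelin, was not called at 540 and 588 in activated and 536 and 530 in quiescent libraries. Des, the intermediate filament desmin often used to stain rodent stellate cells, was the 1 member that fell, at 56 and 48 in activated and 131 and 120 in quiescent libraries. The limma call for Des was lost without quiescent replicate 1 (adjusted p 0.0668) or activated replicate 2 (adjusted p 0.0667).

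Serum response factor drives such genes through the CArG box. It was searched as an exact 10-base match to CC and GG with only A or T between them. Promoters of the list, taken from RefSeq on GRCm38.p6 as 250 bases before to 50 after the start, held the CArG box in 3 of 25 (12%), against 1.63% of all 32851 promoters. The windows with a match are given 5′ to 3′ on the gene's strand, with the match in capitals, because they show the element in 3 of the genes that rose.
Myl9 (chr2:156775293-156775322, plus strand): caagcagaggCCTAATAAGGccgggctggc
Cnn2 (chr10:79988534-79988563, plus strand): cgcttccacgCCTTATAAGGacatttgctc
Myl6 (chr10:128493040-128493069, minus strand): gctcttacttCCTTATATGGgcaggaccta
The matches lie at -161, -56 and -50 from the start in Myl9, Cnn2 and Myl6. Acta2 held no exact match in its window, and boxes with a G or C among the central bases were not searched for. Srf, which encodes the factor itself, was at 1896 and 1811 in activated and 1260 and 1260 in quiescent libraries (0.55 ± 0.10), and its coactivator gene Mkl1 at 1030 and 1086 in activated and 217 and 171 in quiescent libraries (2.43 ± 0.17).

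Integrins and focal adhesion genes were higher in 18 of 35 and lower in 14. Itga11, the subunit of a collagen receptor of fibroblasts, was at 3514 and 3812 in activated and 4 and 4 in quiescent libraries (8.67 ± 0.11). Vcl, vinculin, was at 24099 and 31224 in activated and 1794 and 1762 in quiescent libraries. The largest decreases in the list were Itgb2 and Fermt3, which leukocytes use: Itgb2 was at 35 and 20 in activated and 2386 and 2330 in quiescent libraries. Macrophage markers fell with them, as given above. Targets of YAP and TEAD, the pair that responds to stiffness and stretch, were higher in 15 of 20 and lower in 4, with a median of 1.88. Ankrd1 was at 14432 and 18677 in activated and 327 and 323 in quiescent libraries, and Ctgf, connective tissue growth factor, at 20500 and 24099 in activated and 2106 and 2132 in quiescent libraries. Nt5e, the ectonucleotidase CD73, was at 19 and 14 in activated and 146 and 126 in quiescent libraries.

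The TGF-beta family did not rise as a whole: 11 of 34 members were higher and 23 lower, with a median of -0.777. Its ligands moved in opposite directions. Tgfb3 was at 6464 and 6464 in activated and 54 and 34 in quiescent libraries (7.08 ± 0.16), and Tgfb2 at 1056 and 1155 in activated and 29 and 16 in quiescent libraries (5.38 ± 0.21). Tgfb1, the isoform most studied in fibrosis, was at 128 and 129 in activated and 916 and 872 in quiescent libraries (-2.75 ± 0.28). The activin antagonist gene Fst was at 515 and 500 in activated and 7 and 4 in quiescent libraries, the quiescent values being at the level of silent genes. BMP ligands fell, with Bmp2 at 3 and 2 in activated and 1191 and 1086 in quiescent libraries and Bmp6 at 18 and 1 in activated and 1308 and 1322 in quiescent libraries. Bmp2 and Bmp6 are made by liver endothelium, whose markers fell with them.

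Several receptors of the family were lower. Tgfbr2, the ligand-binding receptor, was at 748 and 765 in activated and 1614 and 1716 in quiescent libraries (-1.13 ± 0.08). Tgfbr3, the coreceptor betaglycan, was at 30 and 20 in activated and 1486 and 1506 in quiescent libraries. Acvrl1, the endothelial receptor ALK1, was at 48 and 36 in activated and 1396 and 1431 in quiescent libraries. Of the Id genes, direct targets of BMP signalling, Id4 was at 35 and 26 in activated and 1168 and 1068 in quiescent libraries, whereas Id3 was at 2640 and 2670 in activated and 2133 and 2250 in quiescent libraries, a call that was lost under median-ratio scaling and without quiescent replicate 1 or activated replicate 2.

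Of 32 PDGF, FGF, VEGF and HGF genes 11 were higher and 18 lower, with a median of -1.19. Pdgfrb, the receptor through which PDGF drives stellate cells, was at 7286 and 7720 in activated and 386 and 335 in quiescent libraries (4.36 ± 0.09). Its relative Pdgfra was at 58 and 60 in activated and 278 and 342 in quiescent libraries (-2.29 ± 0.13). The ligand Pdgfa was not called (-0.02 ± 0.06), though limma called it lower under median-ratio scaling (-0.30, adjusted p 0.00162). Ereg, epiregulin, an EGF receptor ligand, was at 18677 and 18677 in activated and 834 and 838 in quiescent libraries (4.47 ± 0.06), and Figf, which encodes VEGF-D, at 316 and 262 in activated and 2 and 2 in quiescent libraries. The VEGF receptor genes Kdr, Flt4 and Flt1 and the macrophage receptor gene Csf1r fell, Csf1r to 149 and 149 in activated against 20500 and 20500 in quiescent libraries.

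In the Wnt pathway 10 of 20 genes were higher and 9 lower. Wnt5a, the noncanonical ligand, was at 302 and 292 in activated and 6 and 9 in quiescent libraries (4.60 ± 0.14), and its receptor gene Ror1 at 115 and 116 in activated and 1 and 0 in quiescent libraries. Ctnnb1, which encodes beta-catenin, was at 6288 and 6000 in activated and at 58193 and the ceiling in quiescent libraries. Among Notch and Hedgehog genes, 6 of 20 were higher and 11 lower. Notch3, the receptor of mural cells, was at 596 and 696 in activated and 84 and 85 in quiescent libraries, while Notch1 was at 155 and 192 in activated and 4547 and 4368 in quiescent libraries and Notch4, of endothelium, fell too. Smo, the Hedgehog transducer, was at 2802 and 2732 in activated and 306 and 300 in quiescent libraries (3.17 ± 0.05).

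Vasoactive genes were mostly lower, at 14 of 23 with 7 higher. Ptgs2, the inducible cyclooxygenase, was at 31224 and 24099 in activated and 114 and 128 in quiescent libraries (7.77 ± 0.12). Ptgis, prostacyclin synthase, was higher as well (3.54 ± 0.09), and so was F2r, the thrombin receptor PAR1 (3.44 ± 0.08). Ednrb, an endothelin receptor of stellate and endothelial cells, was at 30 and 24 in activated and 6462 and 6462 in quiescent libraries. In the insulin-like growth factor axis, 6 of 12 genes were higher and 4 lower: Igfbp2 was at 4088 and 4266 in activated and 67 and 49 in quiescent libraries, and Igfbp4 at 138 and 112 in activated and 7290 and 6290 in quiescent libraries. Igfbp7 was not called (-0.11 ± 0.05), but limma called it lower under median-ratio scaling (-0.39, adjusted p 0.000603), in a fit of the 4 libraries compared (adjusted p 0.0125) and without either control microRNA library (adjusted p 0.0284 and 0.0281).

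**Figure D4:**
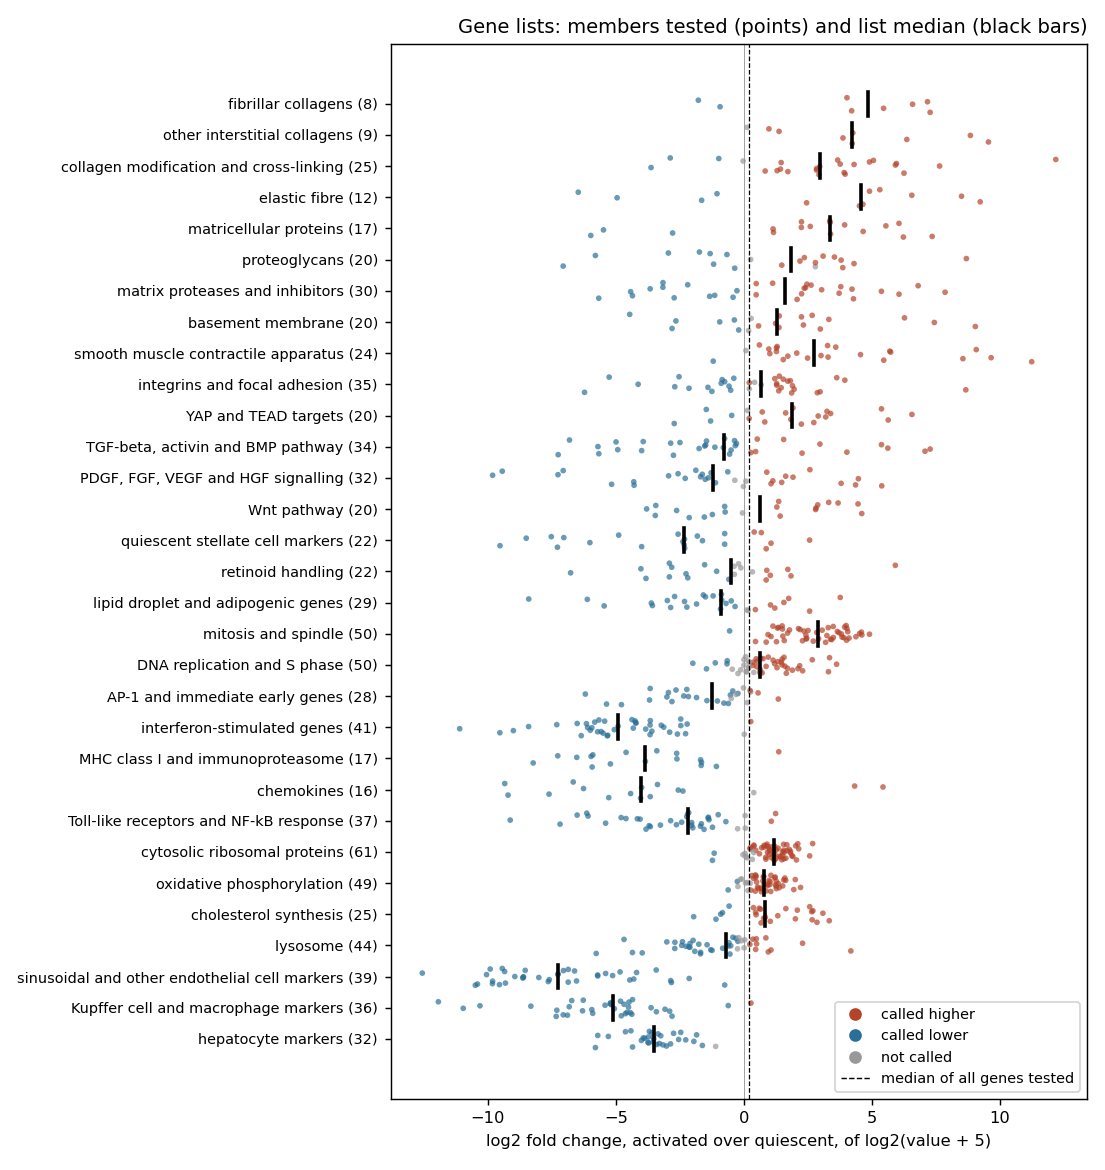
Log2 fold change, activated over quiescent, of every tested member of 31 gene lists (points coloured by call), with the list median as a black bar and the number tested in brackets; the dashed line is the median of all genes tested. Matrix, contractile and mitosis lists lie to the right of it, and immune and endothelial lists to the left.

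Of 22 quiescent stellate markers 17 were lower and 5 higher, with a median of -2.33. Tmem56, a membrane protein, was at 168 and 160 in activated and 10507 and 11355 in quiescent libraries (-6.02 ± 0.08), and the lectin gene Fcna, also a macrophage gene, at 5 and 6 in activated and 8202 and 7286 in quiescent libraries. Among those that were higher, Pparg, the adipogenic nuclear receptor, was at 378 and 357 in activated and 53 and 63 in quiescent libraries (2.57 ± 0.13). Ngfr, the p75 neurotrophin receptor, was at 477 and 452 in activated and 220 and 220 in quiescent libraries. Pparg was under 100 in quiescent cells, in the range of silent genes. The calls for Hand2 and Cygb were lost under median-ratio scaling.

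Of 22 retinoid genes 6 were higher and 11 lower, with a median of -0.484. Aldh1a3, which makes retinoic acid, was at 1614 and 1573 in activated and 20 and 23 in quiescent libraries (5.92 ± 0.09). Cyp26b1, which degrades it, was at 20 and 22 in activated and 2991 and 2670 in quiescent libraries (-6.77 ± 0.25). Dhrs3, a retinal reductase, and Rarb, the retinoic acid receptor gene that retinoic acid itself induces, were lower too: Rarb was at 15 and 14 in activated and 298 and 326 in quiescent libraries, and Dhrs3 at 458 and 519 in activated and 3514 and 3894 in quiescent libraries. Lipid droplet and adipogenic genes were lower in 20 of 29 and higher in 7. Cd36, a fatty acid receptor that endothelium and macrophages also carry, was at 206 and 135 in activated and 58200 and 58200 in quiescent libraries, and Abca1, the cholesterol exporter, at 176 and 159 in activated and 12562 and 11352 in quiescent libraries. Plin4, a droplet coat protein, and Scd2, a fatty acid desaturase, were higher (3.76 ± 0.19 and 1.75 ± 0.11). Sterol synthesis rose, with 20 of 25 genes higher and 5 lower (14 and 5 after median-ratio scaling). Fdps, which makes farnesyl diphosphate, was at 752 and 710 in activated and 98 and 120 in quiescent libraries (2.70 ± 0.10), while Insig1, which restrains the pathway, was at 377 and 356 in activated and 1420 and 1462 in quiescent libraries (-1.96 ± 0.06).

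Transcription factors of mesenchyme showed no common direction, with 12 of 29 higher, 12 lower and a median of 0.19 that turned to -0.08 under median-ratio scaling. Prrx1, a mesenchymal homeobox factor, was at 662 and 678 in activated and 15 and 15 in quiescent libraries, Tbx18, of mural cells, at 230 and 228 in activated and 1 and 1 in quiescent libraries, and Foxc2 at 480 and 546 in activated and 18 and 4 in quiescent libraries. Gata4, which in mice restrains stellate cell activation and also specifies liver sinusoidal endothelium, was at 58 and 44 in activated and 2954 and 2866 in quiescent libraries (-5.71 ± 0.15). Ets1 was at 978 and 930 in activated and 20504 and 20504 in quiescent libraries.

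S100a4, often used as a fibroblast marker, was at 24099 and 18666 in activated and 12 and 8 in quiescent libraries (10.48 ± 0.15), and S100a6 at 14432 and 10507 in activated and 18 and 28 in quiescent libraries. Lgals1, galectin-1, rose (4.53 ± 0.05) and Lgals3, galectin-3, fell to 397 and 362 in activated against 2498 and 2700 in quiescent libraries. Of the 17 S100, galectin and annexin genes, 12 were higher and 3 lower. Of 27 cadherin and adhesion genes 14 were higher and 9 lower. Cdh11, the mesenchymal cadherin, was at 2670 and 2758 in activated and 10 and 12 in quiescent libraries. Ncam1 was at 902 and 870 in activated and 2 and 2 in quiescent libraries, and Thy1, a marker of portal fibroblasts, at 792 and 782 in activated and 0 and 1 in quiescent libraries. Axon guidance genes were lower in 23 of 37 and higher in 11: Sema7a, a membrane-anchored semaphorin, was at 1634 and 1408 in activated and 4 and 1 in quiescent libraries, and Plxnc1, its plexin receptor, at 16 and 25 in activated and 5123 and 5027 in quiescent libraries.

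Genes of mitosis were higher in 49 of 50 and lower in 1, with a median of 2.88, and with the minimum of 100 in 44 of 45. Cdc20, the activator of the anaphase-promoting complex, was at 410 and 377 in activated and 6 and 11 in quiescent libraries (4.91 ± 0.21). Ube2c, the ubiquitin enzyme of that complex, was at 220 and 228 in activated and 6 and 3 in quiescent libraries. Kif20a, a kinesin of cytokinesis, was at 765 and 731 in activated and 34 and 20 in quiescent libraries (4.59 ± 0.21). Quiescent values of these 3 were in the range of silent genes. Mki67, the proliferation antigen, was at 870 and 881 in activated and 321 and 289 in quiescent libraries (1.51 ± 0.12). Pttg1, securin, was the exception at 191 and 192 in activated and 276 and 292 in quiescent libraries (-0.56 ± 0.11).

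The cell cycle homology region TTTGAA, through which the DREAM complex represses mitotic genes in resting cells, stood in 33 of 44 promoters of this list (75%), on either strand, against 17.9% of all promoters. The CCAAT box stood in 77.3% of them, against 37.4%. The members with the largest changes that hold TTTGAA are shown, to let its place beside the start be read.
Cdc20 (chr4:118437344-118437373, minus strand): agacagttgggtTTTGAAggagccaatgaa
Ube2c (chr2:164769888-164769917, plus strand): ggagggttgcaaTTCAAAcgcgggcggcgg
Kif2c (chr4:117178858-117178887, minus strand): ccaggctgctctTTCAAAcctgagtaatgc
Plk1 (chr7:122159453-122159482, plus strand): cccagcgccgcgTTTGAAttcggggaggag
Anln (chr9:22389168-22389197, minus strand): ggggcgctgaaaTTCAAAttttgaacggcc
Hmmr (chr11:40733412-40733441, minus strand): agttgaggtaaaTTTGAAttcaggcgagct
TTCAAA is the same motif on the other strand. The matches in capitals begin at -18 in Cdc20, -29 in Ube2c, -103 in Kif2c, 31 in Plk1, 22 in Anln and 9 in Hmmr. The Anln window holds another, in lower case, at 29. Plk1, the mitotic kinase, was at 150 and 112 in activated and 1 and 2 in quiescent libraries. The whole Cdc20 promoter (chr4:118437294-118437593, minus strand) is given because its match lies next to the start.
Cdc20 promoter: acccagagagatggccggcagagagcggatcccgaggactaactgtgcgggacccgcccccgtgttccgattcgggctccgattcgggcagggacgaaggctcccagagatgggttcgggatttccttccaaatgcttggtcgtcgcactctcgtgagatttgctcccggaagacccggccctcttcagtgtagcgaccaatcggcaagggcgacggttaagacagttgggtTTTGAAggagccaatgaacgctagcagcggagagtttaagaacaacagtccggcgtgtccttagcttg

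DNA replication genes had a smaller median change: 31 of 50 were higher, 5 lower and 14 not called, with a median of 0.64, and with the minimum of 100 24 of 37 were higher and 4 lower. Rrm2, the regulated subunit of ribonucleotide reductase, was at 848 and 743 in activated and 64 and 56 in quiescent libraries (3.62 ± 0.10), and Rrm1, its partner, at 2275 and 2204 in activated and 226 and 206 in quiescent libraries (3.35 ± 0.08). Pcna, the sliding clamp, was at 476 and 368 in activated and 1082 and 1244 in quiescent libraries (-1.46 ± 0.13), Mcm3, of the replicative helicase, at 248 and 248 in activated and 530 and 558 in quiescent libraries, and Pola2, of the primase complex, at 56 and 56 in activated and 244 and 232 in quiescent libraries. The E2F motif TTTNNCGC stood in 34.7% of promoters of this list and 13.6% of those of mitosis, against 5.17% of all. Cell cycle inhibitors and p53 targets had 13 of 31 higher and 14 lower. Cdkn1a, the inhibitor p21, was at 424 and 356 in activated and 682 and 655 in quiescent libraries (-0.77 ± 0.11), and Trp53 itself at 88 and 92 in activated and 435 and 374 in quiescent libraries. Ccng1, cyclin G1, was at 58200 and the ceiling in activated and 1138 and 1260 in quiescent libraries.

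Interferon-stimulated genes were lower in 39 of 41, with a median of -4.91. Rsad2, the antiviral enzyme viperin, was at 26 and 7 in activated and 42350 and 42350 in quiescent libraries (-11.10 ± 0.37). Parp14 was at 39 and 36 in activated and 14432 and 14426 in quiescent libraries, and Irf7, the factor that amplifies interferon, at 19 and 7 in activated and 2670 and 2700 in quiescent libraries. The list's activated values lie mostly in the range of silent genes. Ifi27, at 1155 and 1094 in activated and 940 and 924 in quiescent libraries, was called higher, a call lost under median-ratio scaling, and Isg20 was not called.

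The interferon response motif, a pair of GAAA blocks with any pair of bases between them, stood in 17 of 33 promoters of these genes (51.5%), on either strand, against 3.44% of all and 23.5% for MHC class I genes. The members with the largest changes that hold it are shown.
Rsad2 (chr12:26456553-26456582, minus strand): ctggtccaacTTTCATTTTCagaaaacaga
Bst2 (chr8:71537577-71537606, minus strand): ccaggaaaatGAAACTGAAAggctgcagtt
Igtp (chr11:58199512-58199541, plus strand): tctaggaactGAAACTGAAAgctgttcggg
Oas1a (chr5:120907520-120907549, minus strand): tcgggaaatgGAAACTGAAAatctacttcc
Isg15 (chr4:156200865-156200894, minus strand): aaaggaaaccGAAACAGAAAatagctctgg
Ifit3 (chr19:34583397-34583426, plus strand): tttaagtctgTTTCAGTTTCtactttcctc
In Rsad2 and Ifit3 the motif reads on the other strand. The matches in capitals begin between -124 and -14 from the start. Some windows hold a further match, left in lower case, that overlaps the one in capitals, at -130 in Bst2, -20 in Oas1a and -72 in Isg15. Isg15, a ubiquitin-like protein, held 3 matches and was at 10 and 4 in activated and 696 and 718 in quiescent libraries. A match is a description of the sequence and not of binding.

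Of 17 class I and immunoproteasome genes 16 were lower and 1 higher, with a median of -3.85. Nlrc5, the class I transactivator, was at 4 and 5 in activated and 1396 and 1526 in quiescent libraries, Tap1, the peptide transporter, at 65 and 50 in activated and 3512 and 3894 in quiescent libraries, and Psmb8, of the immunoproteasome, at 5 and 9 in activated and 1010 and 1168 in quiescent libraries. H2-K1 was at 447 and 342 in activated and 24099 and 24099 in quiescent libraries; its paralogs H2-D1 and H2-Q4 were lower too, and reads shared between near-identical H2 genes make each single value uncertain. The chaperone gene Calr was the exception at 12562 and 14426 in activated and 5124 and 5345 in quiescent libraries. The list of class II genes, which mark professional antigen-presenting cells, also held costimulatory genes. Of its 8 members 7 were lower, with H2-Aa at 0 and 2 in activated and 3812 and 3994 in quiescent libraries. The 1 higher member was a costimulatory gene and not a class II gene.

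Chemokines were lower in 13 of 16. Cxcl10 was at 8 and 0 in activated and 5345 and 4266 in quiescent libraries, and Ccl2, the monocyte attractant known from stellate cells, at 241 and 218 in activated and 3682 and 3994 in quiescent libraries (-4.04 ± 0.07). Cx3cl1, fractalkine, was higher at 416 and 515 in activated and 4 and 8 in quiescent libraries. Toll-like receptor and NF-kB genes were lower in 32 of 37 and higher in 2, with Il6 at 768 and 700 in activated and 318 and 298 in quiescent libraries (1.24 ± 0.08). Nfkbia, the NF-kB inhibitor and target, was at 98 and 108 in activated and 4446 and 4663 in quiescent libraries, and Icam1 at 12 and 12 in activated and 9200 and 9821 in quiescent libraries. The kappa B motif, GGGA and CC with any 4 bases between them, stood in 48.8% of promoters of the NF-kB list, against 20.7% of all, and in 18.2% of those of chemokines. Complement was lower in 22 of 24, with C4b at 3 and 2 in activated and 2250 and 2076 in quiescent libraries. Macrophage and endothelial cells express most of the genes of these immune lists, their marker sums fell as given above, and their part in these decreases was not tested.

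Endothelial markers were lower in 39 of 39, with a median of -7.27, and macrophage markers in 35 of 36, with a median of -5.12. Pecam1 was at 32 and 0 in activated and 18666 and 20500 in quiescent libraries, and Clec4f, specific to Kupffer cells among macrophages, at 12 and 1 in activated and 11355 and 14432 in quiescent libraries. Aqp1, a water channel of endothelium, was at 44 and 24 in activated and at the ceiling in both quiescent libraries. In activated cells the 3 were under 100, in the range of silent genes. Hepatocyte markers were lower in 31 of 32, Alb at 118 and 162 in activated and 8724 and 7286 in quiescent libraries. Markers of smooth muscle and pericytes were higher in 7 of 11 and lower in 3. Those of mesothelium and portal fibroblasts were also higher in 7 of 11 and lower in 3. With the minimum of 100, the first list had 6 of 10 higher and 3 lower, and the second 5 of 8 higher and 3 lower. Outside these lists, Mgp, the matrix Gla protein, was at 6003 and 4665 in activated and 1 and 1 in quiescent libraries. Cd248, endosialin of pericytes, was at 6003 and 6003 in activated and 7 and 11 in quiescent libraries.

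Immediate early genes, which respond within minutes to stress or handling, were lower in 20 of 28 and higher in 3. Fos was at 26 and 44 in activated and 1086 and 1050 in quiescent libraries (-4.78 ± 0.22), Fosb at 14 and 12 in activated and 1380 and 1244 in quiescent libraries, Atf3 at 90 and 72 in activated and 1037 and 1118 in quiescent libraries, and Myc at 60 and 56 in activated and 534 and 470 in quiescent libraries. Egr2 was the clearest exception, at 513 and 563 in activated and 210 and 207 in quiescent libraries. NRF2 targets and metallothioneins, of the oxidative and metal stress response, were lower in 20 of 27 and higher in 5: Txnrd1 was at 3112 and 2758 in activated and 31224 and 31224 in quiescent libraries (-3.41 ± 0.08), Gclm, of glutathione synthesis, at 182 and 189 in activated and 1363 and 1296 in quiescent libraries, and Hmox1, also a macrophage marker, at 1515 and 1540 in activated and 31224 and 31224 in quiescent libraries. Gstm2 was higher (2.28 ± 0.09) and Nqo1 was not called (-0.04 ± 0.08), though limma called it lower under median-ratio scaling (-0.32, adjusted p 0.00912).

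Genes of the unfolded protein response, chaperones and export from the endoplasmic reticulum formed 1 list. Of its 35 members 22 were higher and 8 lower (20 and 11 after median-ratio scaling). Kdelr3, a receptor that returns chaperones to the endoplasmic reticulum, was at 1362 and 1430 in activated and 36 and 39 in quiescent libraries (5.04 ± 0.12), Sec23a, of the COPII coat needed to export procollagen, at 4899 and 4899 in activated and 549 and 561 in quiescent libraries (3.13 ± 0.06), and Mia3, the cargo receptor TANGO1, at 2168 and 2202 in activated and 634 and 632 in quiescent libraries (1.78 ± 0.05). The chaperones BiP and GRP94 parted: Hspa5 was at 18677 and 14432 in activated and 58200 and 58200 in quiescent libraries (-1.83 ± 0.19), and Hsp90b1 at 18666 and 18666 in activated and 2922 and 2605 in quiescent libraries (2.76 ± 0.07). Ern1, the stress sensor IRE1 alpha, fell (-2.06 ± 0.14). Ribosomal proteins were higher in 52 of 61 with a median of 1.16, and oxidative phosphorylation in 40 of 49 with a median of 0.779. Under median-ratio scaling 47 ribosomal and 33 oxidative phosphorylation genes were called higher. Rps24 led the ribosomal list (2.69 ± 0.06) and Rps14 fell (-1.16 ± 0.06).

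Lysosomal genes were lower in 29 of 44 and higher in 10, with a median of -0.714. Ctsb, cathepsin B, was at 6000 and 6288 in activated and at the ceiling in both quiescent libraries, Ctsd, cathepsin D, at 8724 and 9198 in activated and 58193 and 58193 in quiescent libraries, and Ctss, of antigen-presenting cells, at 151 and 132 in activated and 8204 and 7724 in quiescent libraries. Ctsk, the collagen-degrading cathepsin K of osteoclasts and fibroblasts, was the largest increase of the list, at 1420 and 1440 in activated and 68 and 81 in quiescent libraries (4.18 ± 0.13). Macrophage markers fell together with the cathepsins, and their part was not tested.

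The remaining lists were mixed or small. Of 21 glycolysis genes 12 were higher and 7 lower. Hk3, the hexokinase of myeloid cells, was at 8 and 7 in activated and 1715 and 1730 in quiescent libraries, and Pfkm, a phosphofructokinase, at 164 and 201 in activated and 22 and 15 in quiescent libraries. Clock genes were higher in 6 of 17 and lower in 10, with Nr1d2, a repressor of the clock loop, at 524 and 522 in activated and 1772 and 1824 in quiescent libraries. Imprinted growth genes were higher in 6 of 13 and lower in 6. The maternally expressed noncoding RNA genes Rian and Meg3 were among the higher ones, Rian at 4265 and 4265 in activated and 30 and 35 in quiescent libraries, while Plagl1, a zinc finger factor, was at 28 and 28 in activated and 486 and 434 in quiescent libraries. HOX genes were higher in 3 of 5 and lower in 2, and only Hoxa5, at 60 and 60 in activated and 179 and 159 in quiescent libraries, reached 100 in both libraries of a group. Myofibroblast markers were higher in 22 of 25 and lower in 3. Cholangiocyte markers were higher in 4 of 6 and lower in 1, and with the minimum of 100 only 2 were left to test, both called higher. Lymphocyte markers were lower in 3 of 3, neutrophil markers in 2 of 2, dendritic cell markers in 6 of 8 and erythroid and platelet markers in 3 of 4. With the minimum of 100, 0 lymphocyte, 1 neutrophil, 4 dendritic cell and 2 erythroid and platelet genes were left to test, all of them called lower.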

How the data were processed

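RNA of mouse hepatic stellate cells was sequenced single-end on a NextSeq after TruSeq preparation, per the labels' protocols. STAR, Subread and featureCounts, without versions, and the build mm10 are named in the submitters' processing notes. The deposited values are normalized scores; the step that gave every library the same 910 values is not given in the sources used here. Intervals for counting error were left out because the depth behind the values is unknown.

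Genes at 10 or more in at least 2 of 8 libraries (13150) were fitted with limma 3.58.1 (R 4.3.3) on log2(value + 5), with a mean per group (4 groups, 4 residual degrees of freedom), a prior on the variance that follows expression level, and Benjamini-Hochberg adjustment over all of them. The fit was tested on simulated data. The comparison and the 56 gene lists were chosen with earlier results of these data known, and 17 symbols were matched through RefSeq synonyms. The genes named are the 15 largest increases and 15 largest decreases with a mean of 200 or more in the higher group and no overlap, up to 6 members of each list in its main direction, 3 in the other and 2 not called, and fixed genes. Cnn2, Myl6, Hmmr, Ifit3, Igtp, Isg15, Oas1a, Cygb and Hand2, and the genes of the closing section, were named after their values were seen. Exon lengths are unions of GENCODE M21 exons. Alternatives covered the pseudocount, filter, scaling, libraries fitted, replicate block, variance prior and ceiling genes.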

Additional observations from a re-analysis of the deposited data

How the results depend on the processing

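Across all genes, 3160 were higher and 2859 lower with a log2 fold limit of 1 added. Leaving out any 1 of the 8 libraries gave 5304 to 5964 higher and 3959 to 4518 lower. With a minimum of 100 the counts were 4519 and 3705, and with median-ratio scaling over genes at 100 or more in every library as well 4014 and 4150; both were added after seeing the data. The other alternatives stayed within 1.5 times of the full counts. No deviation shared by replicate letter was seen between activated and quiescent replicates (r = -0.03). With 1 difference per group, this cannot show whether libraries of the same letter were paired. A fit with the letter as a replicate block called 5938 higher and 4461 lower. Besides the transcription factors, 2 lists changed the sign of their median. With the minimum of 100 the median was -0.52 for HOX genes and -0.09 for imprinted genes, and without it 0.39 and 0.51. Of 215 genes named and tested, 197 kept call and direction under every alternative run. Values that changed sign under median-ratio scaling were Col20a1 (-0.10), Col4a1 (-0.093), Id3 (-0.0022), Ifi27 (-0.0090), Isg20 (-0.23) and Smtn (-0.20, or -0.084 with the minimum of 100). Without 1 library, Isg20 lay between -0.081 and 0.11, Nqo1 between -0.091 and 0.0068 and Pdgfa between -0.057 and 0.021. Id3 and Ifi27 alone of these had been called. The causes were not tested. Unknown depth limits any statement on genes under 100.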

Other observations

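The following gene groups were put together after their values were seen and are described without a test of the group. Replication-dependent histones of the Hist1 cluster were higher in 41 of 42 genes and lower in 1, with a median log2 fold change of 1.99 (limma calls; 39 and 1 after median-ratio scaling). Several of the 41 were under 100 in every library compared, which is treated here as no evidence of expression. Hist1h1b, a linker histone, was at 380 and 382 in activated and 4 and 12 in quiescent libraries, and Hist1h4c, which was lower, at 261 and 186 in activated and 592 and 551 in quiescent libraries. These genes have near-identical copies, so single values are uncertain. Enzymes of serine, glycine, proline and one-carbon metabolism were higher in 14 of 20 and lower in 5. Phgdh, the first enzyme of serine synthesis, was at 1014 and 985 in activated and 20 and 20 in quiescent libraries, and the mitochondrial folate enzyme gene Aldh1l2 at 1353 and 1353 in activated and 12 and 22 in quiescent libraries. Glul, glutamine synthetase, was at 160 and 150 in activated and 4899 and 5123 in quiescent libraries.

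Caveolar genes were higher in 6 of 9 and lower in 3. Cav1, the main caveolin, was at 7720 and 7720 in activated and 247 and 228 in quiescent libraries, whereas its partner Cav2 was at 307 and 272 in activated and 540 and 524 in quiescent libraries. Of 62 small nucleolar RNAs tested, 25 were lower, 4 higher and 33 not called, with a median of -0.273. Of all genes tested, 34.1% were lower. Several of the small nucleolar RNAs called lower were under 100 in every library compared. Snord17 had the largest decrease among them, at 2133 and 2076 in activated and 58200 and 42360 in quiescent libraries. Of 400 sensory receptor genes, 4 reached 100 in any of these libraries. Olfr78, an olfactory receptor also known from smooth muscle, was at 1056 and 1146 in activated and 2 and 2 in quiescent libraries. Activated cells given miR-15a had 300 and 266 for it, and those given the control microRNA 410 and 413.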
